A study of Mus musculus with 3 samples.

Results

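The cytosolic ribosomal protein genes were followed on the liver arrays of mice fed a high-fat diet with sodium ferrous citrate (HF+SFC), a high-fat diet (HF) or a control diet (Control). A gene was taken when a probe set, the group of short probes that reads a transcript, was annotated to it alone and its symbol was Rpsa, Rplp0, Rplp1, Rplp2, or Rpl or Rps with a number and at most 1 of the letters a, l or x. Kinases of the Rps6k family and pseudogenes were left out. The rule found 46 of the 18193 genes that could be named, 22 of the small and 24 of the large ribosomal subunit, read by 100 probe sets. Each gene was represented by its brightest probe set. Of 79 ribosomal proteins in the list of canonical subunits, 42 were found by the rule, 2 more (Fau and Rps3a1) were measured under symbols outside it, and 35, Rplp1 and Rpl5 among them, were not analysed here because no probe set named them alone. The other 4 members are the paralogues Rps4l, Rps27l, Rpl3l and Rpl39l.

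All mice were male C57BL/6J, started on their diets at 6 weeks of age and fed for 15 weeks, and they were fasted for some hours before collection. The HF+SFC diet was the HF diet with 0.023% sodium ferrous citrate (w/w), an iron supplement. The HF diet (D12492) supplied 60% of its energy as fat, and the Control diet (D12450B) 10%. The labels give an age of 21 months, which does not match these times and was not used. Each group was measured once, on an Affymetrix array hybridised with the mixed material of all its mice, so that the 3 arrays hold no replicates, the spread between mice was not measured, and no test between diets was possible. Values are MAS5 signals, linear intensities that the authors scaled to the same trimmed mean of 500.004 on every array, and ratios are given on the log2 scale. A signal from whole liver cannot tell fewer cells of a type from less RNA per cell.

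Ribosomal proteins assemble with ribosomal RNA into the small subunit, which decodes the message, and the large subunit, which forms the peptide bond. In mammals their mRNAs begin with a C followed by a run of pyrimidines, the 5′ terminal oligopyrimidine (TOP) tract. The tract brings their translation, and through the binding protein LARP1 their stability, under control of the mTOR kinase, which senses nutrients and insulin. The liver spends much of its capacity for protein synthesis on plasma proteins.

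The annotated transcription starts of some members are shown because the TOP tract is the sequence by which these mRNAs are known. Each run holds the 20 bases before the start and the first 20 bases from it, as RefSeq places the start on GRCm38.p6, read 5′ to 3′ on the strand of the gene, with the pyrimidine tract in capitals. The first 5 belong to genes with some of the lowest HF over Control ratios, and the last 3 to some genes near no difference. Rpl41 has no tract near its start, so none of its bases is in capitals. These picked examples do not show a relation between tract and ratio. Rps3 and Rpl10a, with ratios of -0.41 and -0.40, had no tract near the annotated start, and Rpl27a, with the longest tract found, 20 bases, was at -0.21.
Rps18, chr17:33955646-33955685, minus strand: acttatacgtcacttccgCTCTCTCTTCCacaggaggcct
Rps10, chr17:27635225-27635264, minus strand: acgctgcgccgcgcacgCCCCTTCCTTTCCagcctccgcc
Rpl13a, chr7:45128726-45128765, minus strand: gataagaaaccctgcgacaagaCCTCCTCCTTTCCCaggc
Rpl35, chr2:39005112-39005151, minus strand: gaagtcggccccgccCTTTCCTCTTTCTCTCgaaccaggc
Rps6, chr4:86857348-86857387, minus strand: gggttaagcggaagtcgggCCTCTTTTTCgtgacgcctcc
Rps2, chr17:24720043-24720082, plus strand: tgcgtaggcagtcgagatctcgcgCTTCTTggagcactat
Rps27l, chr9:66946066-66946105, plus strand: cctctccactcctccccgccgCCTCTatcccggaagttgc
Rpl41, chr10:128549149-128549188, minus strand: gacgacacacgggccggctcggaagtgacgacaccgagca

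Promoter sequence, 250 bases before to 50 bases after the start, was found for 40 of the 46 members. A tract, defined as a C followed by at least 4 C or T and beginning within 5 bases of the annotated start, was present in 19 members (47.5%), against 21.2% of all 27025 genes with a promoter. The word CGGAAG on either strand, the core bound by ETS factors such as GABP, was in 72.5% of the members and in 18.8% of all promoters. The GC box GGGCGG on either strand was in 55% of the members and 38.2% of all promoters. The YY1 core AAGATGG was in 17.5% of the members, against 7.28% of all promoters, and TATAAA in 12.5% of the members, against 15.7%. Lists of related genes, described below, shared some of these traits. Of 40 ribosome assembly genes with a promoter, 57.5% had CGGAAG, 62.5% GGGCGG, 25% a tract, 5% AAGATGG and 5% TATAAA. Of 12 other TOP RNAs with a promoter, 41.7% had a tract, 33.3% CGGAAG, 41.7% GGGCGG, 16.7% AAGATGG and 16.7% TATAAA. No member had a tract that overlapped CGGAAG. In 4 genes the CGGAAG word, in capitals and read on the strand of the gene, lay as follows, with 20 bases on each side.
Rps18, chr17:33955648-33955693, minus strand: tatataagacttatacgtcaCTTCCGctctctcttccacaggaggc
Rps10, chr17:27635247-27635292, minus strand: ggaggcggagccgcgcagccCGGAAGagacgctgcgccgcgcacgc
Rps6, chr4:86857354-86857399, minus strand: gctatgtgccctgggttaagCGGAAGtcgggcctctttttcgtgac
Rpl41, chr10:128549198-128549243, minus strand: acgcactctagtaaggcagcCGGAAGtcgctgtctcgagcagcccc
The copies shown are the nearest that lie wholly before the annotated start. They ended 2 bases before the start in Rps18, 6 bases before it in Rps6, 22 bases in Rps10 and 49 bases in Rpl41. In Rpl41 a further copy spans the annotated start and can be read in its run above. These matches are descriptions of letters in a window, and a start annotated some bases off its true place would hide a tract.

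Of the 46 members, 43 passed the signal filter, a mean signal of at least 76.9 that holds the upper 50% of all probe sets. The filter used the mean of the 3 arrays, taken on the log2 scale, and 11341 genes passed it. Of the members, 38 lay in the upper 25% of signal, 19 of each subunit, with mean signals from 1155 to 38422. Another 5 were read above the filter but dimly, and Rpl3l, Rpl39l and Rps16 did not pass it. Most results below concern the 38 bright members, because ratios of dim probe sets are imprecise: the SD between probe sets of the same gene was 0.35 (log2) for HF over Control among all genes past the filter and 0.20 in the upper 25%.

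The bright ribosomal protein genes were lower as a group in HF liver than in Control liver. The log2 ratio of HF over Control was below 0 in 37 of the 38, where 51.3% of all genes in the upper 25% were below 0. Its median was -0.32, a 1.25-fold lower signal, against -0.01 over all 6834 bright genes. The members lay close together, between -0.53 and 0.00, with an SD of 0.12, while the SD over all bright genes was 0.43. None reached 1.5-fold, where 6.5% of the bright genes were higher in HF by that much and 4.14% were lower. The difference was a small one in nearly every member, not a large one in a few. Over all 43 members past the filter, 40 were below 0, where 46.9% of all genes past the filter were.

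Other genes of like signal were centred nearer to 0. Between mean signals of 8000 and 32000, the 33 members had a median of -0.32 and an SD of 0.11, and 32 were below 0. The other 520 genes of that range had a median of -0.05 and an SD of 0.37, and 60% were below 0. After quantile normalization of the arrays the median over the 43 members past the filter became -0.21, against 0.00 over all genes.

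**Figure D1:**
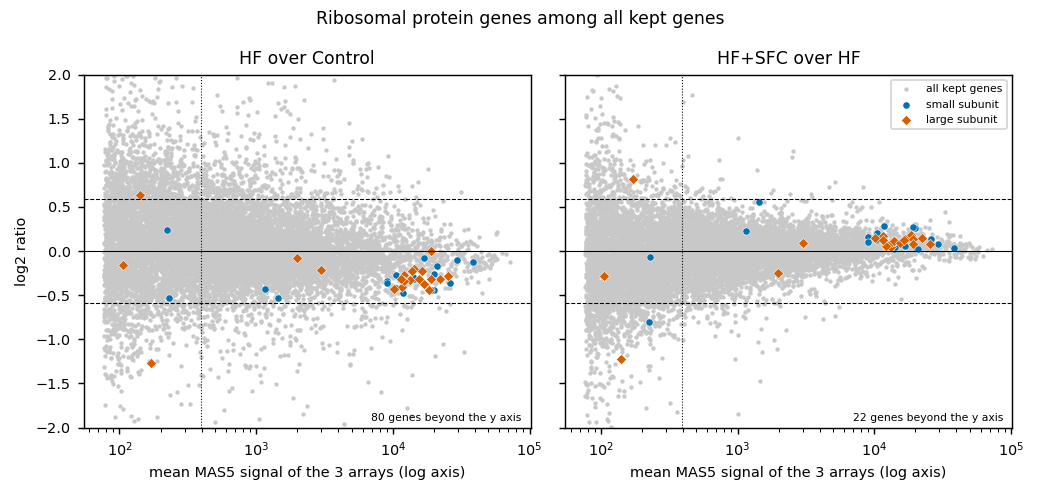
The log2 ratio (vertical axis) is plotted against the mean MAS5 signal of the 3 arrays (horizontal log axis) in HF against Control (left) and HF+SFC against HF (right); grey points are all 11341 genes past the filter, circles are small and diamonds large subunit members, dashed lines mark 1.5-fold and the dotted line the upper 25% of signal. The bright members form a tight cloud around -0.32 on the left and 0.11 on the right, and the members left of the dotted line scatter widely; 80 and 22 genes lie beyond the axis.

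With iron in the diet the same group was slightly higher than in HF liver. The HF+SFC over HF ratio was above 0 in 37 of the 38 bright members, where 53.5% of all bright genes were above 0, and the exception was Rpl37. The median was 0.11, a 1.08-fold higher signal, against 0.02 over all bright genes, with an SD of 0.11 against 0.21. In the range from 8000 to 32000 all 33 members were above 0, with a median of 0.11 and an SD of 0.06, while the other 520 genes had a median of 0.06, an SD of 0.13 and 71.2% above 0. None of the bright members reached 1.5-fold, where 0.571% of the bright genes were higher by that much and 1.11% lower. Over the 43 members past the filter, 38 were above 0, where 48.8% of all genes past the filter were. Quantile normalization brought the median over the members past the filter down to 0.05, against 0.01 over all genes, and lowess scaling brought it to 0.06, against 0.00.

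HF+SFC liver was below Control liver. The HF+SFC over Control ratio was below 0 in 36 of the 38 bright members, against 49.4% of all bright genes, with a median of -0.20, an SD of 0.10 and a range from -0.34 to 0.14. The median over all bright genes was 0.00. None of the bright members reached 1.5-fold, where 6.0% of the bright genes were higher and 4.48% lower by that much. Over the 43 members past the filter, 41 were below 0, where 47.9% of all genes past the filter were. Each array enters 2 of these comparisons, so that the 3 sets of ratios are not independent of each other. The 38 bright members carried 2.34% of the summed signal in HF+SFC, 2.21% in HF and 2.61% in Control.

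**Figure D2:**
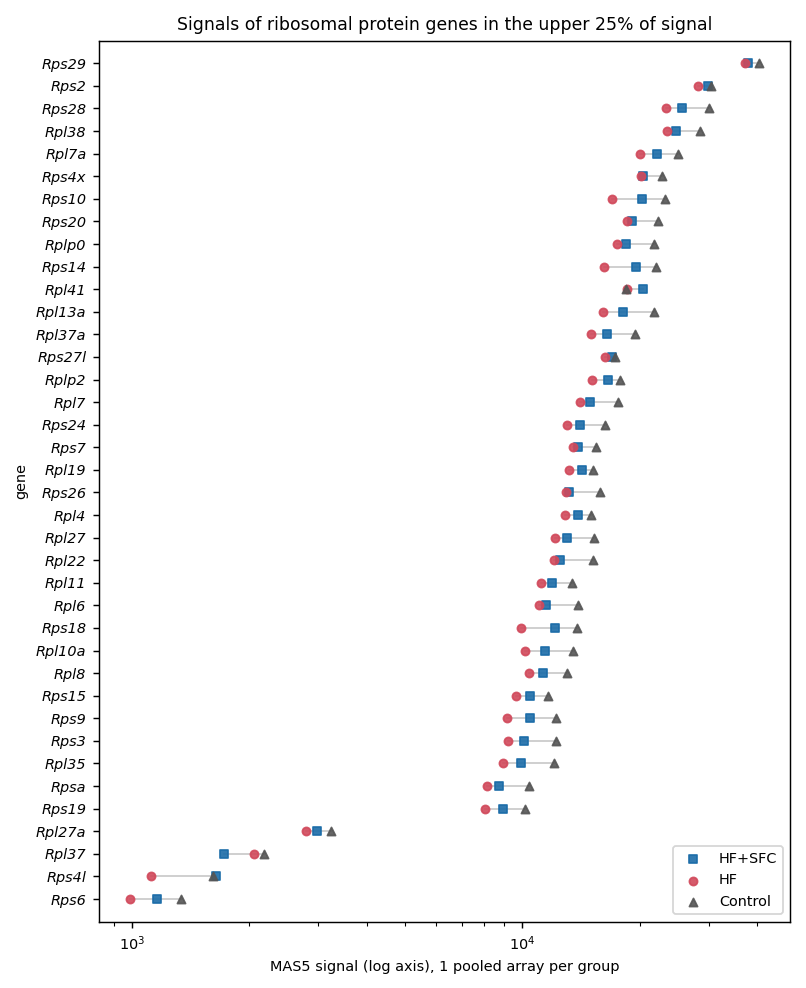
MAS5 signal (horizontal log axis) of each of the 38 bright ribosomal protein genes (vertical axis, sorted by mean signal) on the single array of HF+SFC (squares), HF (circles) and Control (triangles). In most genes the circle is farthest left and the triangle farthest right, Rpl37 has its lowest signal in HF+SFC, and in Rpl41 the HF and Control points coincide.

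The medians of the subunits were close. The small subunit genes had a median of -0.34 for HF over Control, 0.12 in HF+SFC over HF and -0.19 for HF+SFC over Control, and all 19 were below 0 in the first comparison and above it in the next. The large subunit genes had medians of -0.32, 0.11 and -0.23 in the same order, with 18 of 19 below 0 in the first and 18 of 19 above 0 in the second.

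Among small subunit genes, Rps18, which sits in the head of the subunit, had a signal of 12100 in HF+SFC, 9953 in HF and 13818 in Control. Its log2 ratio was -0.47 for HF over Control and 0.28 in HF+SFC over HF, and 3 bright probe sets placed the first between -0.55 and -0.46. Rps10, near the mRNA entry, read 20313 in HF+SFC, 16991 in HF and 23145 in Control, with ratios of -0.45 and 0.26. Rps14, which lines the platform, read 19584 in HF+SFC, 16223 in HF and 22016 in Control, with ratios of -0.44 and 0.27. In all 3 genes HF was the lowest array, and HF+SFC lay between it and Control.

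Rps6, the classical substrate of the S6 kinases downstream of mTOR, read 1162 in HF+SFC, 993 in HF and 1334 in Control, a ratio of -0.43 for HF over Control and 0.23 in HF+SFC over HF. This probe set is the only one of Rps6 past the filter, and 9 more that name Rps6 with another gene were not used. Rps9, which lies at the mRNA entry channel, read 10482 in HF+SFC, 9120 in HF and 12235 in Control, at -0.42 for HF over Control, and a further bright probe set gave -0.17.

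Other small subunit genes hardly differed. Rps2, at the mRNA entry channel, read 29886 in HF+SFC, 28245 in HF and 30344 in Control, with a ratio of -0.10 for HF over Control. Rps29 read 37873 in HF+SFC, 37101 in HF and 40367 in Control, a ratio of -0.12, while its 3 probe sets spread from -0.33 to -0.12. Rps4x, the X-linked form of RPS4, read 20404 in HF+SFC, 20141 in HF and 22732 in Control, at -0.17 for HF over Control and 0.02 in HF+SFC over HF. Rps26, Rps29 and Rps20 followed it with the next lowest HF+SFC over HF ratios of the subunit, at 0.03, 0.03 and 0.04. The gap between these genes and Rps18 rests on 1 array of each diet.

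The genes lining the mRNA path, Rps2, Rps3, Rps26 and Rps28, had a median of -0.33 for HF over Control and 0.11 in HF+SFC over HF. Rps3 and Rps28 were the lower of the 4. Rps28 read 25657 in HF+SFC, 23353 in HF and 30067 in Control, and its 3 probe sets agreed within -0.38 to -0.34. Rps3, which also has a DNA repair activity, read 10082 in HF+SFC, 9181 in HF and 12236 in Control, at -0.41. The 2 dimmer probe sets of Rps3 lay higher, up to -0.12.

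In the large subunit, Rpl13a, a component of the inhibitor complex of interferon-stimulated cells, read 18137 in HF+SFC, 16050 in HF and 21757 in Control. Its ratio was -0.44 for HF over Control and 0.18 in HF+SFC over HF, but its 4 bright probe sets ran from -0.84 to -0.04 in the first. Rpl35, at the exit of the peptide tunnel, read 9901 in HF+SFC, 8934 in HF and 12059 in Control, at -0.43 and 0.15. All 5 of its bright probe sets lay between -0.54 and -0.40, the closest agreement among members with at least 4. Rpl4 and Rpl19, also of the exit tunnel, were at -0.22 and -0.20 for HF over Control.

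The stalk that recruits elongation factors was represented by Rplp0 and Rplp2. Rplp0, its base, read 18482 in HF+SFC, 17463 in HF and 21778 in Control, at -0.32 for HF over Control and 0.08 in HF+SFC over HF. Rplp2 read 16547 in HF+SFC, 15120 in HF and 17746 in Control, at -0.23 and 0.13. Rpl11, which with Rpl5 and the 5S RNA forms the particle that binds the p53 regulator MDM2, read 11882 in HF+SFC, 11146 in HF and 13426 in Control, at -0.27 and 0.09. Each of the 3 had its lowest signal in HF.

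Rpl41 and Rpl37 stood outside the group. Rpl41, the smallest ribosomal protein, read 20328 in HF+SFC, 18508 in HF and 18464 in Control, so that HF and Control were nearly level and HF+SFC was the highest, at 0.14 over HF and 0.14 over Control. A further bright probe set of Rpl41 read 9882 in HF+SFC, 8520 in HF and 9799 in Control, a ratio of -0.20 for HF over Control. Rpl37 read 1727 in HF+SFC, 2060 in HF and 2181 in Control, at -0.08 for HF over Control and -0.25 in HF+SFC over HF. It had the lowest HF+SFC over Control ratio of the bright members, -0.34, followed by Rpl35, Rpl22, Rps3 and Rpl6, all at -0.28. The place of Rpl22 rests on its brightest probe set. Its 3 bright probe sets ran from -0.28 to 0.51 in this comparison, and only 1 was below 0. Rpl37 was read by 1 probe set alone, and 3 others shared with another gene were not used.

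Of the human genes whose loss of 1 copy causes Diamond-Blackfan anaemia, a failure of red cell production, 9 of the 15 listed were measured in mouse form. All 9 were below 0 in HF over Control with a median of -0.32, and all 9 were above 0 in HF+SFC over HF, where their median was 0.10. They are bright members and did not differ from these as a whole. Of the 38 bright members, 37 were below 0 in the first comparison and 37 above 0 in the second, with medians of -0.32 and 0.11.

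Of the paralogues, Rps4l, related to Rps4x, had the lowest HF over Control ratio and the highest HF+SFC over HF ratio of the bright members, with signals of 1646 in HF+SFC, 1118 in HF and 1617 in Control. Its ratios were -0.53 and 0.56, just short of 1.5-fold in each (0.58 on the log2 scale), and 0.03 for HF+SFC over Control. It was read by 1 probe set. Rps27l, a p53-responsive paralogue of Rps27, read 17020 in HF+SFC, 16322 in HF and 17226 in Control, and its 3 probe sets agreed on a small difference between -0.12 and -0.07 for HF over Control. All 3 carry a suffix marking probes that may match several transcripts. Whether RNA of Rps27 or other genes adds to these signals was not tested. Rpl3l, whose expression is known from striated muscle, and Rpl39l, known from the testis, did not pass the filter. Rpl3l read 40.9 in HF+SFC, 33.3 in HF and 3.51 in Control and Rpl39l read 23.7, 27.0 and 28.6 in that order. The large Rpl3l ratios, 3.24 in HF over Control and 3.54 in HF+SFC over Control, come from signals below the filter. Rps16 was read at 1.86 in HF+SFC, 1.34 in HF and 1.65 in Control, and 2 further probe sets that name it with another gene were not used.

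The only members past 1.5-fold and past the filter were dim. Over all genes past the filter, 11.3% were higher in HF than in Control by that much and 5.84% were lower, and of the 43 members only Rpl14 was higher (0.63) and Rpl39 lower (-1.27). For HF+SFC over HF, where 2.88% of all genes were higher and 5.33% lower, Rpl39 was higher (0.81) and Rpl14 (-1.22) and Rps27 (-0.80) lower. For HF+SFC over Control, where 9.2% were higher and 6.88% lower, no member was higher and Rps25 (-0.60) and Rpl14 (-0.59) were lower, with Rps27 just short of the threshold at -0.56. Nearest to the threshold without reaching it were Rps25 at -0.53 on the lower side for HF over Control and Rps4l at 0.56 on the higher side for HF+SFC over HF. On the other sides of these comparisons the next members were far from it, Rps27 at 0.24 and Rpl12 at -0.28.

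The dim signals were as follows. Rpl39, in the wall of the exit tunnel, read 186 in HF+SFC, 106 in HF and 255 in Control. Rpl14 read 92.7 in HF+SFC, 216 in HF and 139 in Control. Rps27 read 163 in HF+SFC, 284 in HF and 241 in Control. Rpl39 was lowest in HF, and Rpl14 and Rps27 were highest there, so that these 3 differed in the order of HF and Control.
Rps25, needed by some viral internal ribosome entry sites, read 198 in HF+SFC, 207 in HF and 299 in Control. Rpl12, on the stalk base, read 89.5 in HF+SFC, 109 in HF and 122 in Control. All 5 dim genes were lower in HF+SFC than in Control, where 47.9% of all genes past the filter were. Their median was -0.56 and their SD 0.07. In this comparison the SD between probe sets of the same gene was 0.36 over all genes past the filter. The closeness of these 5 dim genes is therefore not evidence of a common shift. All but Rpl39 had their lowest signal in HF+SFC. Each of these 5 genes was read by 1 probe set, and other probe sets that name them with a second gene, 5 for Rpl14, 2 for Rpl12 and 1 each for Rps27, Rpl39 and Rps25, were not used.

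The probe sets of the same gene gave a check within an array, although not between mice. In the upper 25% of signal, 73 probe sets of members were read, and 69 were below 0 for HF over Control, 67 above 0 for HF+SFC over HF and 64 below 0 for HF+SFC over Control. Over all bright genes, each read by 1 probe set, the shares were 51.3%, 53.5% and 49.4%. Probe sets of the same gene read it on the same arrays, so these counts are not independent. In 18 members with more than 1 bright probe set, the SD between probe sets was 0.19 for HF over Control and 0.18 in HF+SFC over HF, wider than the SD of 0.12 and 0.11 between members. An order among most members is therefore not resolved.

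**Figure D3:**
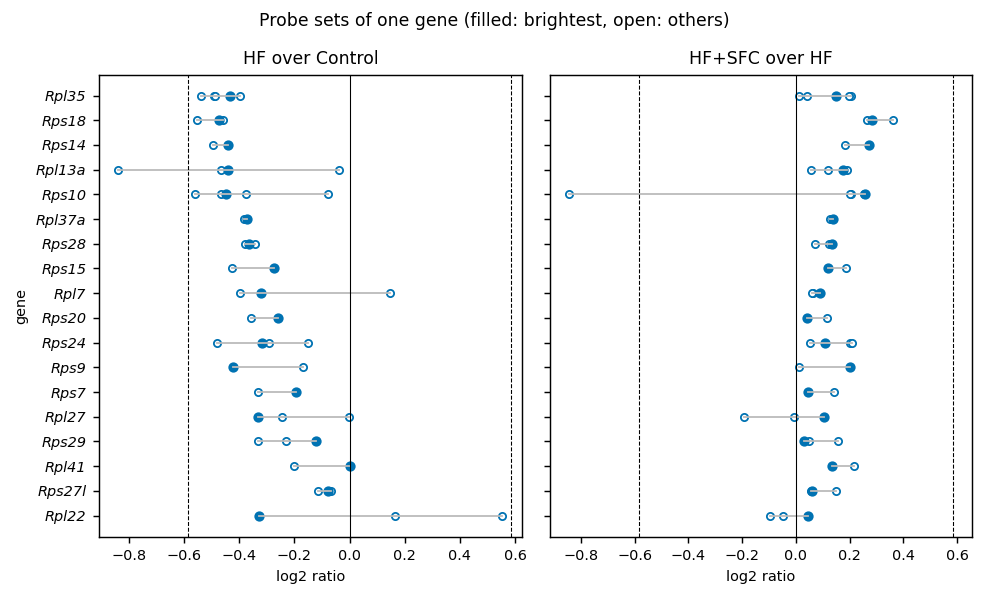
Log2 ratios (horizontal axis) of every bright probe set of the 18 members with more than 1 (vertical axis, sorted by their median), in HF against Control (left) and HF+SFC against HF (right); filled points are the brightest probe set, open points the others, and dashed lines 1.5-fold. Rpl35, Rps18 and Rps28 are tight, whereas Rpl13a, Rps10, Rpl7 and Rpl22 spread widely, with 1 probe set of Rps10 at -0.84 on the right.

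For HF over Control the SD between bright probe sets was highest in Rpl22, an RNA-binding subunit, whose 3 ran from -0.33 to 0.55, while for HF+SFC over HF they ran from -0.10 to 0.05. Rpl7 ran from -0.40 to 0.15 over 3 probe sets, and Rps24 from -0.48 to -0.15 over 4. For HF+SFC over HF the SD was highest, at 0.48, in Rps10, where 4 of 5 bright probe sets lay between 0.20 and 0.26 and the dimmest of them at -0.84. Rpl27 spread from -0.33 to 0.00 over 3 probe sets for HF over Control. Rps20 had 4 probe sets past the filter between -0.36 and 0.16, of which the 2 bright ones were at -0.36 and -0.26. Rpl37a was at -0.38 and -0.37 in its bright probe sets and at -0.02 in a dimmer one, and Rps9 had a dimmer probe set at 0.15. The 2 dimmer probe sets of Rpl41 were at 0.84 and -0.40.

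Probe sets whose suffix marks that their probes may match several transcripts (69 of the 100) could mix members. Taking only those with the plain suffix gave 19 genes past the filter, with a median of -0.27 for HF over Control, 0.09 in HF+SFC over HF and -0.23 for HF+SFC over Control. The share above 0 in HF+SFC over HF was then 57.9%, where it was 88.4% over the 43 members. Of these 19, 3 were at least 1.5-fold lower in HF+SFC than in HF (15.8%, against 5.64% of all genes read this way), namely Rpl14, Rps27 and a dim probe set of Rpl41. Against Control, 3 were that much lower in HF+SFC (15.8%, against 7.31%), namely Rpl14, Rps25 and the same probe set of Rpl41. The 8 bright members whose brightest probe set had the plain suffix had medians of -0.32, 0.11 and -0.18 in the same order, and all 8 were below 0 for HF over Control and above 0 for HF+SFC over HF.

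Members with and without a tract at the annotated start had nearly equal medians. The 15 bright members with a tract had a median of -0.32 for HF over Control and ran from -0.47 to -0.08. The 17 bright members with a promoter but no tract in the window had a median of -0.33 and ran from -0.41 to 0.00. A start annotated off its true place would hide a tract, so the second class may hold genes whose mRNAs begin with a tract. The split therefore cannot show whether the tract matters for the ratio.

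Related genes outside the rule lay near the members. Fau, which encodes a ubiquitin-like protein fused to the small subunit protein eS30, read 13656 in HF+SFC, 11749 in HF and 14531 in Control, at -0.31 for HF over Control and 0.22 in HF+SFC over HF. Rps3a1, the mouse gene of the small subunit protein eS1, read 19588 in HF+SFC, 18026 in HF and 23415 in Control, at -0.38 and 0.12. The paralogue Rpl7l1 was at -0.33 and 0.10, and Rpl22l1, a paralogue of Rpl22, at -0.06 and 0.20.

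Of 17 listed TOP RNAs other than those of ribosomal proteins, mostly of translation factors, 16 passed the filter. These had a median of -0.26 in HF over Control, with 15 below 0, where 46.9% of all genes past the filter were. In HF+SFC over HF the median was 0.10, with 11 above 0, where 48.8% of all genes were. None reached 1.5-fold, where 11.3% of all genes were higher and 5.84% lower by that much in the first comparison. In the second, 2.88% were higher and 5.33% lower. The lowest were Eif3k (-0.42) and Eef1d (-0.41), subunits of an initiation and an elongation factor, and Nap1l1 (-0.40), a histone chaperone. The highest were Eif3f (0.07), Pabpc1, the poly(A)-binding protein (-0.04), and Hnrnpa1, a splicing factor (-0.15).

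Genes of ribosome assembly were lower by less. Of 48 listed, 47 passed the filter, with a median of -0.15 for HF over Control and 36 below 0, where 46.9% of all genes past the filter were. Ebna1bp2 (-0.64), Rrs1 (-0.62) and Nob1 (-0.59), which act in maturation of the subunits, were at least 1.5-fold lower and none was higher, and 3 of 47 is near the 5.84% of all genes past the filter. Higher by that much in HF than in Control were 11.3% of all genes. For HF+SFC over HF the median was 0.05, with 28 above 0, where 48.8% of all genes past the filter were. Rrp9, a component of the U3 RNA-protein particle, was the only one past 1.5-fold (1.84), where 2.88% of all genes were higher and 5.33% lower. Its signal was 249 in HF+SFC, 69.5 in HF and 86.6 in Control. For HF+SFC over Control the median was -0.03, with Rrp9 higher (1.53) and Nop2 (-0.70) and Nop58 (-0.59) lower. Of all genes past the filter, 9.2% were higher and 6.88% lower in that comparison.

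The mTOR and LARP1 genes showed no common shift. The median over 16 genes was 0.06 in HF over Control and -0.01 in HF+SFC over HF. In the first, 8 were above 0, where 53.1% of all genes past the filter were. At least 1.5-fold higher there were 2 of the 16 and lower 1, near the 11.3% and 5.84% of all genes past the filter. In the second, 0 were higher and 1 lower by that much, where 2.88% and 5.33% of all genes were. Larp1, which encodes the TOP-binding protein, read 2363 in HF+SFC, 2143 in HF and 3285 in Control, a ratio of -0.62 for HF over Control and 0.14 in HF+SFC over HF. Ddit4, which encodes an inhibitor of mTOR complex 1, was at 0.62 for HF over Control. Mlst8, a subunit of both mTOR complexes, was at 0.66 for HF over Control and -0.73 in HF+SFC over HF, but at low signals of 146 in HF+SFC, 243 in HF and 154 in Control.

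The ribosomal proteins of mitochondria, a list added after the values of the members were seen, lay near 0 for HF over Control and close to the cytosolic members for HF+SFC over HF. The 76 genes past the filter, all in the upper 25% of signal, had a median of 0.01 for HF over Control, with 37 below 0. Of all bright genes, 51.3% were below 0. For HF+SFC over HF the median was 0.13, with 59 above 0, where 53.5% of all bright genes were. For HF+SFC over Control their median was 0.09, with 21 below 0, where 49.4% of all bright genes were. No gene of the list was past 1.5-fold for HF over Control, where 6.5% of the bright genes were higher and 4.14% lower. For HF+SFC over HF 1 was lower, where 0.571% of the bright genes were higher and 1.11% lower. For HF+SFC over Control 1 was higher and 2 were lower, where 6.0% of the bright genes were higher and 4.48% lower. The difference between these genes and the cytosolic members has no replicate check.

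**Figure D4:**
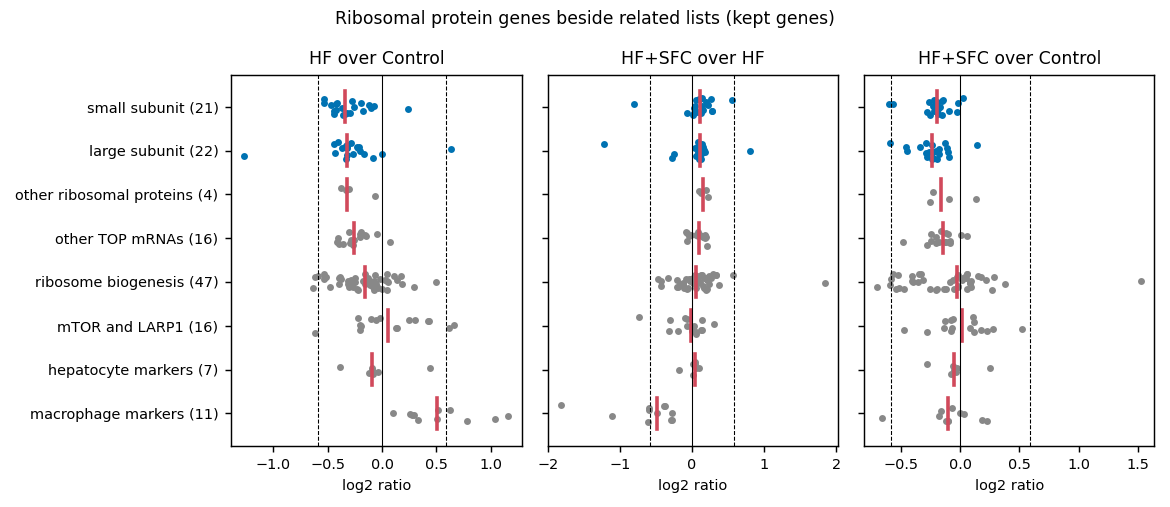
Log2 ratios (horizontal axes) of the genes past the filter in HF over Control (left), HF+SFC over HF (middle) and HF+SFC over Control (right), for the members of each subunit (blue) and for 6 other lists (grey), with the number of genes in brackets; points are genes, spread vertically for sight, bars are medians and dashed lines mark 1.5-fold. The bars of the subunits, of the ribosomal proteins outside the rule and of the other TOP mRNAs lie together in the left panel, between -0.34 and -0.26, and the macrophage markers lie at 0.50.

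Markers of liver cells moved between the same arrays. Of 8 listed hepatocyte markers, Alb, Ttr, Apoa1, Apoa2, Cps1, Tat and Ass1 passed the filter, and Serpina1a was not read by a probe set of its own. The 7 had a summed signal of 287495 in HF+SFC, 280822 in HF and 299483 in Control. Their median ratio was -0.09 for HF over Control and 0.04 in HF+SFC over HF, with 6 of 7 below 0 in the first and 6 of 7 above 0 in the second. Ass1 went the other way, at 0.44 and -0.18, with a mean signal of 472, the lowest of the 7. All 11 markers of Kupffer cells and other macrophages had log2 ratios above 0 for HF over Control (median 0.50) and below 0 in HF+SFC over HF (median -0.49), with summed signals of 19693 in HF+SFC, 27421 in HF and 20187 in Control. All 7 stellate cell and fibroblast markers were likewise above 0 in the first and below 0 in the second (medians 1.13 and -0.76), with summed signals of 12771 in HF+SFC, 17547 in HF and 10782 in Control. Of these 7, 6 were above 0 for HF+SFC over Control, where 8 of the 11 macrophage markers were below 0. Of 6 lymphocyte markers read, 2 passed the filter, Ptprc and Ccl5. Their medians were 1.19 for HF over Control and -1.61 in HF+SFC over HF. The others, Cd3e, Cd3g, Cd79a and Nkg7, were below the filter, so these medians do not stand for the list. The 5 endothelial markers had medians of 0.31 and -0.22 in the same order, with 4 above 0 in the first and 4 below 0 in the second. Cdh5 went the other way, at -0.26 and 0.03. The 3 cholangiocyte markers past the filter had medians of 0.38 and -0.73, but Sox9 went the other way, at -0.83 and 0.41. The 1 erythroid marker past the filter was at 0.20 and -0.25, and Acta1, the only 1 of 4 striated muscle markers past the filter, was at -1.14 and 1.61, the same directions as the ribosomal protein genes, with dim signals of 138 in HF+SFC, 45.0 in HF and 99.4 in Control. No marker named here was at 0. Their part in the ratios of the ribosomal protein genes was not tested.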

How the data were processed

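The authors pooled the cDNAs of the samples of a group for Affymetrix Mouse Genome arrays. They deposited MAS5 signals, that is, linear intensities with 1 column per array. The version of MAS5 is not given in the sources used here. A 2% trimmed mean was 500.004 on each array, so that differences in total signal had been removed before deposit. No per-sample column was left unused, and no detection call was used. The number of arrays, 3, limits the precision.

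Genes were assigned from the annotation of the platform, and only probe sets with 1 gene were used (34945 of 45101, of which 64 are controls). In addition 110 probe sets that name a member symbol together with another gene were left out. Entrez identifiers of 46 of 46 members matched RefSeq (GRCm38.p6), and 0 symbols differed. Per gene the probe set of highest mean log2 signal was taken. Genes with a mean signal in the upper 50% of probe sets passed the filter. No pseudocount was added, and 1.5-fold was the threshold. With 1 array per group there is no test and no p-value. Lists are described by counts and medians beside all genes.

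The text names every member past 1.5-fold, the 5 highest and 5 lowest in a comparison, members with at least 3 probe sets past the filter or near the threshold, and the stalk, 5S particle, paralogue and related genes. Of the assembly, TOP and mTOR lists it names those past 1.5-fold or up to 3 at each end, and it gives markers and mitochondrial ribosomal proteins by counts and medians. The members and lists were chosen with earlier results of these data known. Further members were named for their place in the ribosome. Alternatives were quantile normalization, lowess, median centring, centring on the upper 5% of signal, no filter, the upper 25% of signal, a pseudocount of 16, the median over probe sets, plain suffixes alone and a 2-fold threshold. Scripts were tested on simulated data. Python 3.11.15, numpy 2.4.6, pandas 2.3.3, scipy 1.17.1, statsmodels 0.14.6 and matplotlib 3.10.9 were used.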

Additional observations from a re-analysis of the deposited data

How the results depend on the processing

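Under the 9 alternatives of scaling, filter and summary that bear on them, the medians over the members kept their direction, from -0.41 to -0.21 for HF over Control, 0.05 to 0.23 for HF+SFC over HF and -0.23 to -0.16 for HF+SFC over Control. Median centring moved the median of all genes for HF+SFC over HF to 0.11, and the members' 0.23 is to be read against it. The shares of members in the leading direction, chosen after seeing the data, ran from 73.7% to 97.4% below 0 for HF over Control, 57.9% (plain suffix only) to 97.4% above 0 for HF+SFC over HF, and 84.2% to 95.3% below 0 for HF+SFC over Control.

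The counts of members past 1.5-fold were small throughout. Higher in HF over Control was 1, but 0 under the 2-fold threshold, lowess, median centring, quantile normalization, the pseudocount and the upper 25% of signal, and 2 with no filter. Lower in HF over Control was 1, but 2 under lowess and quantile normalization, 3 under median centring and 0 in the upper 25%. Higher in HF+SFC over HF was 1, but 0 at 2-fold and in the upper 25%, and 2 under median centring. Lower in HF+SFC over HF was 2, but 1 at 2-fold, 0 in the upper 25% and 3 (of 19) with plain suffixes alone. Higher in HF+SFC over Control was 0, and 1 with no filter. Lower in HF+SFC over Control was 2, but 1 under lowess and 0 at 2-fold, under centring on the upper 5%, median centring and the pseudocount and in the upper 25%, and 3 (of 19) with plain suffixes alone. The cause was not tested beyond what the construction of the alternatives gives. No paired analysis was possible because each group has 1 array. The precision at low signal limits what can be said of the 5 dim members.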
